A study of Arabidopsis thaliana with 5 samples.

Results

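Long noncoding RNA (lncRNA) genes make transcripts that are not translated into protein, and in the compact genome of Arabidopsis thaliana many of them lie over protein-coding genes. The genes described here are the lncRNA genes on chromosomes 1 to 5 that shared at least 1 bp with a protein-coding gene: 1420 of 3480 lncRNA genes, or 40.8%. The other 2060 lncRNA genes lay apart from protein-coding genes. The 1420 genes formed 1563 pairs with 1516 protein-coding partners, which are 5.53% of the 27432 protein-coding genes. The rule reads gene coordinates alone and uses no peak.

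The data are maps of R-loops in whole seedlings of wild-type Arabidopsis of the Columbia ecotype, 12 days old. DNA from nuclei was cut with the restriction enzymes SspI, EcoRI, HindIII, DdeI, MspI and RsaI, and fragments holding a DNA:RNA hybrid were pulled down with the S9.6 antibody (DNA:RNA immunoprecipitation, DRIP). After sonication, library adapters were joined to the DNA as single strands so that each read kept its strand. The series has 2 DRIP replicates, 2 samples that also received RNase H, an enzyme that removes the RNA of a hybrid, and 1 input sample. The RNase H and input samples were not analysed here, so the peaks below have no measured loss under RNase H. All groups are of the same wild-type genotype, and whole seedlings mix many cell types.

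There were 4 lists of peaks: DRIP replicate 1 with 47291 peaks, DRIP replicate 2 with 39888, and a w list of 34493 and a c list of 34069, both recorded under DRIP replicate 1. The w and c lists hold peaks of opposite DNA strands, with 1 list each and no replicate, and it is unknown which of the pair has the RNA. The labels do not say that the replicates were grown separately, so their spread can be purely technical. Read totals are not part of a peak list, and library depth is therefore unknown. No test was made between sets of genes. DRIP results are given as values in each replicate, as the SD over the 2 replicates or as calls in both. Values over the 5 chromosomes are given only for coverage of shared and unshared bases and for covered gene ends.

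An R-loop forms when an RNA pairs with the DNA strand it was copied from and displaces the other strand, most often behind a transcribing polymerase. Where a lncRNA and a messenger RNA are copied from opposite strands of the same bases, as at antisense pairs, hybrids can in principle form on either strand of those bases. Several plant lncRNAs are known to act on the gene they overlap. The antisense transcripts of the flowering repressor FLC are the best known case, and an R-loop at the antisense promoter has been described there.

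Most overlaps were short and most lncRNA genes were nested. The median overlapping lncRNA gene was 397 bp long against 314 bp for lncRNA genes apart and 2207 bp for the partners. The stretch that a pair shared had a median of 335 bp and ran from 1 to 6588 bp. In 904 pairs (57.8%) the lncRNA gene lay inside the protein-coding gene. In 284 pairs it covered the end of the partner at lower coordinates, in 271 the end at higher coordinates, and in 104 pairs the whole protein-coding gene lay inside the lncRNA gene. Of the lncRNA genes, 1289 had 1 partner, 123 had 2, and 8 had 3 to 5, and 45 partners had more than 1 lncRNA gene, so some pairs share bases and peaks. Overlapping lncRNA genes were on all 5 chromosomes, with 434 on chromosome 1 and 203 on chromosome 4, and 6.27% were pericentromeric against 15.9% of lncRNA genes apart.

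Overlapping lncRNA genes carried a DRIP peak more often than lncRNA genes apart. In replicate 1, 648 of 1420 (45.6%) had a peak, and in replicate 2, 588 (41.4%), where the background over all 3480 lncRNA genes was 30.7% and 26.9%. In both replicates, 561 (39.5%) had a peak against a background of 25.6%, and 329 of 2060 lncRNA genes apart (16.0%) did. In neither replicate was there a peak in 745 overlapping lncRNA genes (52.5%, background 68%), and 601 (42.3%) had no peak of any list against a background of 58.1%. The gap between overlapping genes and genes apart was therefore wider than the gap between replicates. Many of these peaks only reach into the lncRNA gene: with the peak's summit required inside it, 26.1% of overlapping lncRNA genes had one in both replicates, and with only the upper 50% of peaks by fold, also 26.1%.

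Length moves with these shares, and the order held in each class of gene length. Up to 250 bp, 23.7% of 270 overlapping lncRNA genes had a peak in both replicates against 9.98% of 611 apart. From 251 to 500 bp the shares were 28.8% of 586 and 14.6% of 1123. From 501 to 1000 bp they were 44.5% of 274 and 29.3% of 300. Above 1000 bp they were 71.0% of 290 and 61.5% of 26, the last a small class.

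The partners differed less from the other protein-coding genes. A DRIP peak in both replicates was present in 1020 of 1516 partners (67.3%) against a background of 60.6% over all protein-coding genes and 60.2% of the 25916 without a lncRNA gene.

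Pooled over all pairs, the shared bases were the most densely covered. In all, 913 kb were shared, and 23.4% of these bases lay under peaks in replicate 1 and 21.3% in replicate 2 (22.3% ± 1.49, SD, n = 2). The bases of the partners outside the overlap were covered at 15.5% and 14.2% (14.8% ± 0.90). The bases of the lncRNA genes outside the overlap were covered at 11.6% and 10.5% (11.02% ± 0.78). Shared bases were thus covered 1.504 ± 0.0088 times as densely as partner-only bases and 2.02 ± 0.0077 times as densely as lncRNA-only bases, in both replicates.

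Pooled over chromosomes, the unshared bases were covered about as densely as genes without an overlap. Partner-only bases reached 0.99 ± 0.011 times the coverage of protein-coding genes apart (15.8% and 14.2%), and lncRNA-only bases 1.08 ± 0.0060 times that of lncRNA genes apart (10.7% and 9.62%). By chromosome the ratios spread more widely, from 0.78 on chromosome 2 to 1.14 on chromosome 4 for partner-only bases and from 0.57 on chromosome 5 to 1.48 on chromosome 2 for lncRNA-only bases. The higher coverage of shared bases was present on each chromosome: they exceeded partner-only bases by 4.50 to 16.0 percentage points in replicate 1 and by 3.93 to 14.6 in replicate 2. They exceeded lncRNA-only bases by 9.49 to 13.9 and by 9.05 to 13.1 points. Transcript levels were not measured here, so their part in these differences was not tested.

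**Figure D1:**
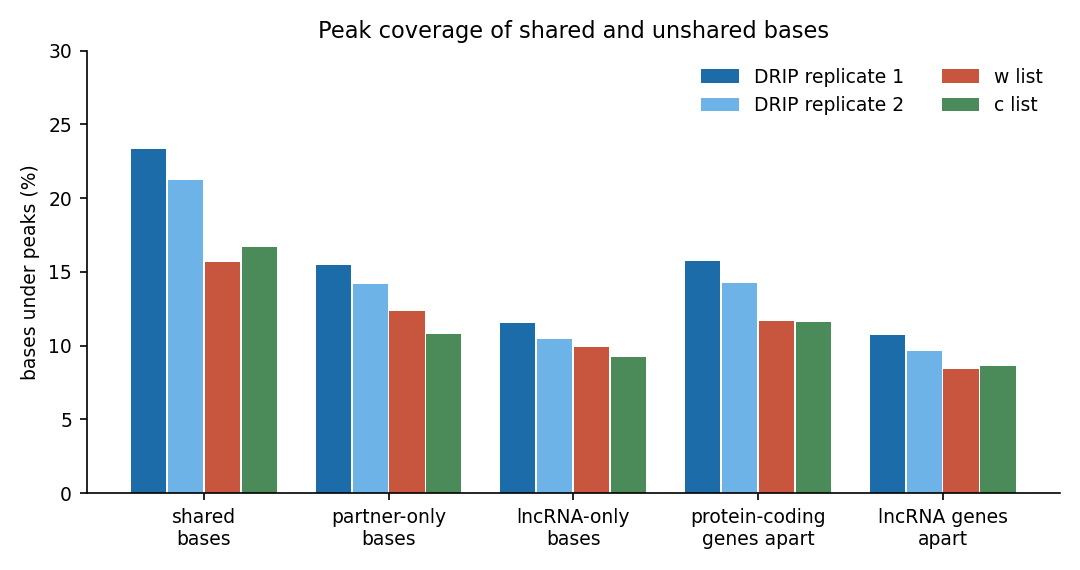
Share of bases under peaks (vertical axis, percent) in the 5 kinds of region, with 1 bar for each of the 4 peak lists. Shared bases stand at 23.4% and 21.3% in the DRIP replicates, above partner-only bases at 15.5% and 14.2% and lncRNA-only bases at 11.6% and 10.5%.

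Coverage summed over all pairs is not what the typical pair shows. Of 1452 pairs with partner-only bases, the shared stretch was more densely covered than the rest of the partner in both replicates in 355 and less densely covered in both in 518. The short shared stretch often held no peak at all: 397 pairs had a DRIP peak in both replicates in the partner-only bases alone, 75 in the shared bases alone and 397 in both. The mean over pairs was still higher for shared stretches, at 20.7% against 17.0% in replicate 1 and 19.1% against 15.9% in replicate 2. Against lncRNA-only bases, present in 567 pairs, the counts ran the other way, with 155 pairs higher and 57 lower in both replicates.

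The count of pairs turned with the length of the shared stretch. Among the shortest overlaps, of 1 to 224 bp, 62 pairs were higher in shared than in partner-only bases in both replicates and 157 lower. From 225 to 335 bp the counts were 75 and 148, from 336 to 682 bp 98 and 136, and from 683 to 6588 bp 120 and 77. Coverage of the shared bases themselves rose from 17.4% in the shortest class to 24.7% in the longest in replicate 1, and from 16.0% to 22.6% in replicate 2. In each of the 4 classes it was above the coverage of the partner-only bases, which ran from 14.3% to 16.8% in replicate 1.

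**Figure D2:**
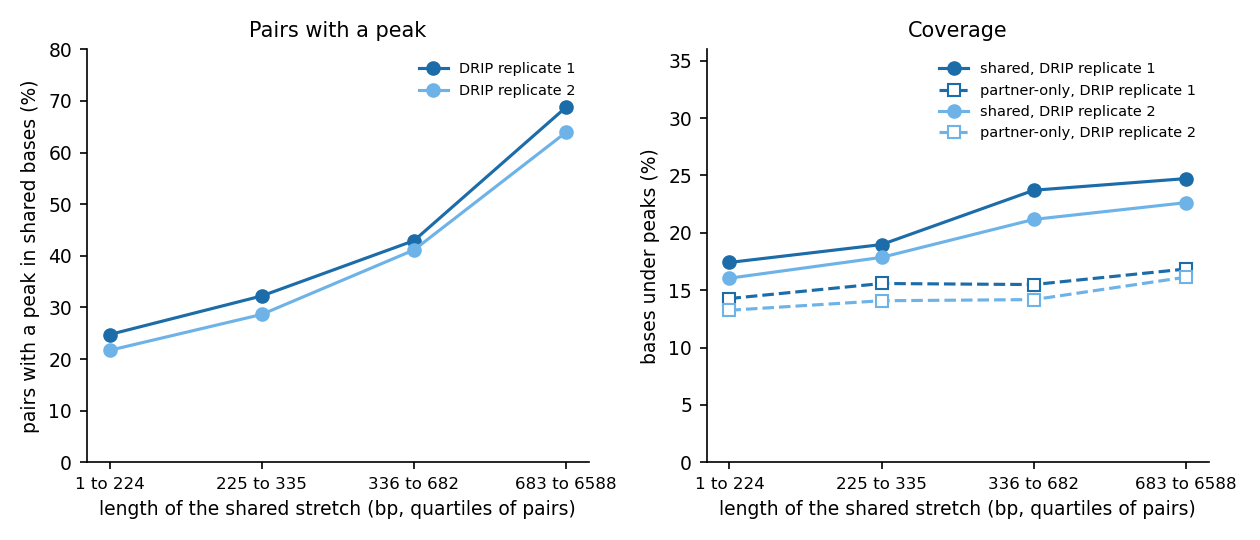
Pairs grouped into 4 classes by length of the shared stretch (horizontal axis, bp): at left the percent of pairs with a DRIP peak in the shared bases, at right the percent of bases under peaks in shared (filled) and partner-only (open) bases. In replicate 1 the share of pairs with a peak goes from 24.7% to 68.8%, and shared coverage is above partner-only coverage in each class.

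A DRIP peak touched the shared stretch of 659 pairs (42.2%) in replicate 1 and 607 (38.8%) in replicate 2, and 575 (36.8%) in both. By summit it was 22.8% of pairs. The peaks concerned were wider than usual. In replicate 1, 809 peaks lay in shared bases with a median width of 313 bp and a median fold of 3.35, against 240 bp and 3.01 over all peaks of the list. In replicate 2 there were 724, of 353 bp and 3.29-fold, against 270 bp and 2.98-fold. The gap to other peaks in protein-coding genes was smaller. These had medians of 253 bp and 3.11-fold in replicate 1 and 285 bp and 3.11-fold in replicate 2. The fold is the authors' enrichment over the local background as MACS2 gives it, and it is used here only to rank peaks within a list. Peaks in shared bases also recurred: 85.5% of those of replicate 1 overlapped a peak of replicate 2, against 79.5% of all its peaks, and in the other direction 97.0% did against 95.1%. Of other peaks in protein-coding genes, 81.1% of replicate 1 and 95.4% of replicate 2 did. A wide peak meets a region more readily, and how far width set these shares was not tested.

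The 4 arrangements of the pairs were covered alike by DRIP peaks. Shared bases of nested lncRNA genes were covered at 23.1% and 21.0% in replicates 1 and 2, those at the higher-coordinate end of the partner at 23.9% and 21.7%, and those at the lower-coordinate end at 24.5% and 22.3%. Protein-coding genes lying wholly inside a lncRNA gene were covered at 23.5% and 21.8%. Differences among the 4 were smaller than the difference between replicates. The strand lists were less even. In the same order, w peaks covered 16.7%, 16.6%, 14.3% and 12.6% of the shared bases. For c peaks the values were 15.6%, 16.8%, 18.9% and 19.5%. Pairs with a whole protein-coding gene inside had a peak in both replicates most often, in 71 of 104 (68.3%), and they also had the longest shared stretch, with a median of 1525.5 bp.

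Peaks of the w and c lists were counted next, since an overlap can hold genes of either strand. The gene table used gives no strand, so lncRNA genes are not divided here into sense and antisense. Shared bases were covered at 15.7% by w peaks and 16.7% by c peaks, against 12.3% and 10.8% of partner-only bases and 9.90% and 9.21% of lncRNA-only bases. The excess over partner-only bases was present on each chromosome for c, at 1.27 to 11.9 points, and on 4 of 5 for w, where it ran from -1.13 to 9.39 points.

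Bases under both a w and a c peak were rare. They made up 1.14% of shared bases, 0.525% of partner-only bases, 0.512% of lncRNA-only bases and 0.555% of protein-coding genes apart. The share in shared bases was 2.17 times that in partner-only bases. Each list alone also covered more of the shared bases, 1.27 times for w and 1.55 times for c. Of the bases under either list, 3.65% were under both in shared bases and 2.32% in partner-only bases. The value was 2.75% in lncRNA-only bases and 2.79% in lncRNA genes apart. Shared bases were above partner-only bases on each chromosome. Above them were lncRNA-only bases on chromosome 2 (4.62% against 3.65%) and chromosome 4 (7.52% against 4.92%). The same held for lncRNA genes apart on chromosome 3 (4.27% against 3.42%) and chromosome 4 (6.39%). At the level of genes, 500 overlapping lncRNA genes (35.2%, background 23.6%) held a w peak and 485 (34.2%, background 24.1%) a c peak. Of these, 179 (12.6% of the 1420) held both, against a background of 6.26% over all lncRNA genes and 39 (1.89%) of those apart. This share rose with gene length, and lncRNA genes apart were shorter. Up to 250 bp it was 3.70% against 0.982% of those apart, and from 251 to 500 bp 6.14% against 1.16%. From 501 to 1000 bp it was 11.7% against 6%, and above 1000 bp 34.8% against 7.69% of only 26 genes apart. A w peak alone was present in 321 (22.6%, background 17.4%) and a c peak alone in 306 (21.5%, background 17.8%). Neither was present in 614 (43.2%, background 58.5%), and 144 (10.1%, background 9.91%) had a w or c peak without a DRIP peak, a share near the background.

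Among the partners 920 (60.7%) held a w peak and 898 (59.2%) a c peak, against backgrounds of 54.9% and 54.8% over all protein-coding genes. Both were present in 549 (36.2%, background 30.7%), a w peak alone in 371 (24.5%, background 24.2%) and a c peak alone in 349 (23.0%, background 24.1%).

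In the shared stretch itself, 331 pairs held w peaks only, 333 held c peaks only and 160 held both, which is 19.4% of the 824 with a strand peak. Among whole genes with a strand peak, both lists were present in 15.1% of all lncRNA genes and 6.12% of those apart. For all protein-coding genes this share was higher, at 38.9%. By summit 101 pairs held both, and among the upper 50% of peaks by fold 76. In 73 of the 160 the w and c peaks shared bases, and in the others they had no base in common there. The share of pairs with both was 29.8% (31 of 104) where the protein-coding gene lay inside the lncRNA gene, and 8.10% to 9.59% in the other 3 arrangements. The median shared stretch was also longest there, at 1525.5 bp against 198.5 to 357.5 bp, and length was not matched. A strand peak without a DRIP peak of either replicate was present in the shared stretch of 147 pairs (9.40%). Over whole genes the background was 9.91% of all lncRNA genes and 10.6% of all protein-coding genes.

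The strand list of the shared stretch was mostly that of the bases next to it, but this rests on peaks that cross the boundary. Where shared and partner-only bases each held peaks of 1 strand list, the lists were the same in 299 of 331 pairs (90.3%). Counted by peak summit, so that a peak belongs to 1 side only, they were the same in 86 of 158 (54.4%). The 2 sides of protein-coding genes apart, cut in the middle, gave 78.6% and, by summit, 59.1%. Partner-only and lncRNA-only bases held opposite lists in 27 pairs. In these the shared stretch held the list of the lncRNA side alone in 8, the list of the partner side alone in 3, both in 6 and neither in 10. By summit only 10 such pairs were left. In 0 of them did the shared stretch hold the list of the lncRNA side alone, and 8 had no summit there.

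bZIP6, a bZIP transcription factor gene, was 1 of the 8 counted from 1 bp of overlap. Its lncRNA gene AT2G07850 covered its higher-coordinate end over 1149 bp, where DRIP peaks reached 4.47-fold in replicate 1 and 4.75-fold in replicate 2, and the w peak 8.25-fold with no c peak. The ABC transporter gene ABCB20 was another, with 362 bp shared with AT3G08475, DRIP folds of 4.32 and 4.15 and a w fold of 5.13. Both genes held c peaks only in their remaining bases, and both lncRNA genes w peaks only. They were taken from the 8 after their values were seen, because other lists below hold them too.

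At the ends of protein-coding genes the w and c lists are uneven, and lncRNA genes that cover an end were set against this. In the 600 bp inside the lower-coordinate end of protein-coding genes apart, w peaks made up 36.2% of the coverage by w and c together, and at the higher-coordinate end 63.2%. In shared bases inside a covered lower end, the w share was 30.6%, with 11.1% to 45.6% over the chromosomes. Inside a covered higher end it was 53.1%, with 47.0% to 61.1% over the chromosomes, each below that of genes apart on the same chromosome (61.3% to 64.1%). On chromosomes 1 and 3 the lower-end share, 45.6% and 44.5%, was nearer to even than that of genes apart, 35.6% and 36.3%, and on the other 3 it was farther from even. Over whole shared stretches, not only the first 600 bp, the w share was 42.7% at lower ends and 49.4% at higher ends.

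DRIP coverage inside covered ends was higher than inside other ends, with the wider gap from 200 to 600 bp. In the first 200 bp inside the gene, shared bases at lower ends were covered at 20.0% and 17.0% in the replicates, against 16.2% and 15.1% for genes apart. From 200 to 600 bp inside, the values were 28.2% and 26.8% against 18.7% and 16.8%. At higher ends the first 200 bp gave 19.2% and 17.4% against 15.9% and 14.8%, and the bases from 200 to 600 bp 26.4% and 24.6% against 18.0% and 16.3%. Over the 600 bp, covered lower ends were above those of genes apart on all 5 chromosomes and covered higher ends on 4. On chromosome 5, 54 covered higher ends averaged 9.96% ± 0.37 (n = 2) against 16.6% ± 1.14. Fewer overlaps reach far into the gene, so the bases counted fell from 12877 in the first 50 bp to 3487 in the last 50 bp at lower ends, and the pairs behind the inner values are those with long overlaps.

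**Figure D3:**
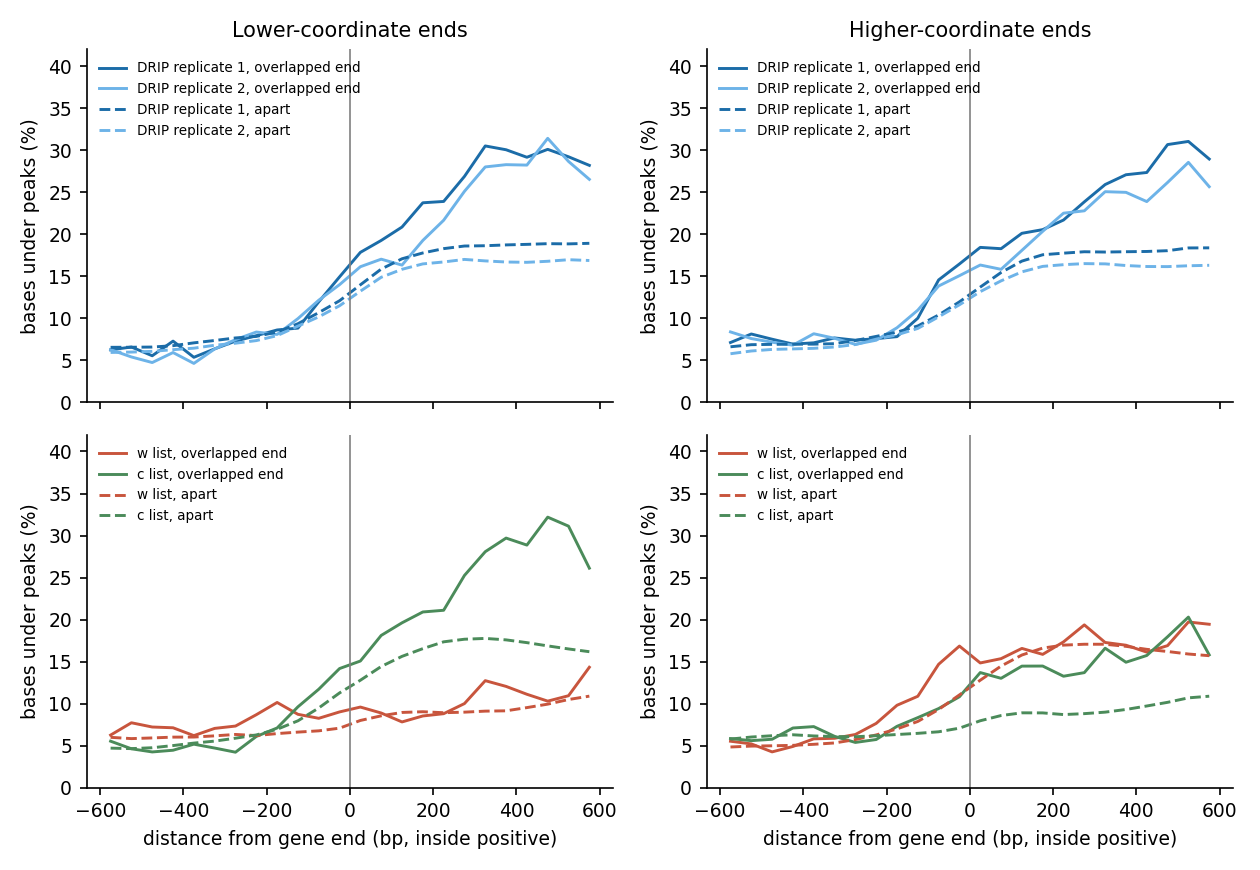
Percent of bases under peaks in steps of 50 bp by distance from the end of the protein-coding gene (horizontal axis, bp, inside positive), for ends covered by a lncRNA gene (solid lines, shared bases inside the gene) and ends of genes apart (dashed), with DRIP replicates above and w and c lists below. From 200 to 600 bp inside, covered lower ends stand at 28.2% and 26.8% in the DRIP replicates and ends of genes apart at 18.7% and 16.8%.

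Nested lncRNA genes were sorted by the part of the partner that held their centre, with protein-coding genes cut into 3 equal parts by coordinate. Their shared bases can run into a neighbouring part, and the length of the overlap was not matched. Genes centred in the lower, middle and higher part shared 100, 264 and 124 kb. The 240 lncRNA genes centred in the lower part had shared bases covered at 18.7% ± 1.42 (mean of DRIP replicates, n = 2), against 15.9% ± 1.11 of the same part of protein-coding genes apart. The 366 in the middle part had 22.0% ± 1.70 against 13.9% ± 1.11, and the 298 in the higher part 25.03% ± 1.00 against 15.3% ± 1.03. Shared bases were thus more densely covered than genes apart in each part in both replicates. The unshared bases of the same partners were covered at 12.4% ± 1.21, 18.8% ± 0.82 and 14.9% ± 0.63 for lncRNA genes in the lower, middle and higher part, so partners with a lncRNA gene in the middle part were also densely covered outside it. The w share of the strand coverage followed the part: 37.5%, 50.0% and 65.1% from lower to higher, against 36.4%, 50.3% and 63.7% in genes apart.

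**Figure D4:**
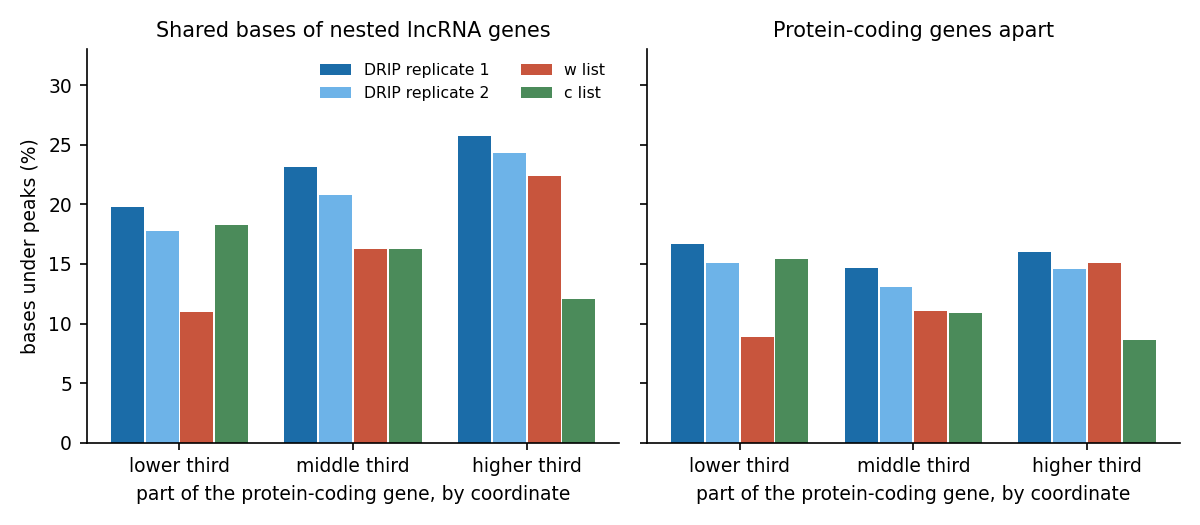
Percent of bases under peaks for nested lncRNA genes (left, by the part of the partner holding their centre) and for the parts of protein-coding genes apart (right). Parts are in coordinate order, with 1 bar for each peak list. DRIP bars are taller at left in each part, and w and c bars change places between the lower and the higher part on both sides.

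Single pairs were ranked by the smaller of their 2 DRIP folds in the shared stretch, which over the 575 pairs with a peak in both replicates ran from 1.63 to 9.49 with a median of 3.47. The fold is that of the highest peak touching the stretch, and its summit can lie outside: of the 12 highest pairs, only 4 had the summit of that peak in the shared stretch in both replicates. These were AT1G36992, AT1G76878, AT3G52605 and AT5G03668, and AT2G03975 had it in replicate 2 only. The lncRNA gene AT1G36992 ranked highest. It covers the higher-coordinate end of AT1G36990 over 578 bp, and the DRIP fold there was 9.49 in replicate 1 and 9.60 in replicate 2. The peaks lay at chr1:14029505-14030556 and chr1:14029498-14030555 (TAIR10) and covered the whole shared stretch. A c peak of 9.02-fold covered all of it as well, and a w peak of 8.55-fold covered 28.03% of it. Both strand lists thus had a high peak in the same 578 bp.

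The lncRNA gene AT1G76878, of 2954 bp, holds the whole of AT1G76880. Its DRIP folds were 7.28 and 7.40, with peaks at chr1:28866587-28868060 and chr1:28866829-28868090. A w peak of 8.84-fold and a c peak of 6.01-fold overlapped inside the gene. No peak of any list lay in the bases of the lncRNA gene outside the partner.

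In AT1G05453, nested in CDPK1, a calcium-dependent protein kinase gene, the DRIP folds were 6.70 and 7.13 and the w fold was 10.2, with no c peak. The w peak, at chr1:6525831-6526871, had its summit outside the shared stretch, and most of it lay outside both genes. Peaks of the w list covered 24.4% of the shared bases and 3.07% of the rest of CDPK1. The DRIP peaks, at chr1:6525843-6526228 in replicate 1, covered only 22.7% and 23.5% of the 671 bp shared. Peaks of the c list covered 18.2% of the rest of CDPK1 and none of the shared stretch. The lncRNA gene AT1G08707, nested in AT1G64561, had DRIP folds of 6.94 and 6.58 and a w peak of 10.1-fold over its whole length, at chr1:23973859-23974537, with no c peak. For AT4G08015, nested in AT4G28180, folds of 6.95 and 6.52 belonged to a peak that only touched the shared stretch. With at least 50 bp of the peak required inside it, the smaller fold was 3.17.

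The other 7 of the 12 highest had smaller folds of 6.14 to 6.46. AT4G09785 in AT4G39040 (CFM4, a CRM family member) and AT2G09370 in AT2G42330 held c peaks only, at 6.76-fold and 6.94-fold, which covered 62.7% and 85.6% of the shared bases. AT1G04047 in AT1G01725 and AT5G03668 over the lower end of TRM28, a TON1 recruiting motif gene, held w peaks only, at 8.54-fold and 10.4-fold. AT1G06227 at AT1G29418, with 86 bp shared, and AT2G03975 in AT2G01410, with 1129 bp, held both. At AT3G52605, over the lower end of AT3G52610, the c peak of 10.5-fold and both DRIP peaks lay in the lncRNA gene, and no peak of any list lay in the remaining bases of AT3G52610. Of the 12, 5 held peaks of both strand lists in the shared stretch, 4 of w only and 3 of c only, counts that follow from peaks chosen for their height.

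**Figure D5:**
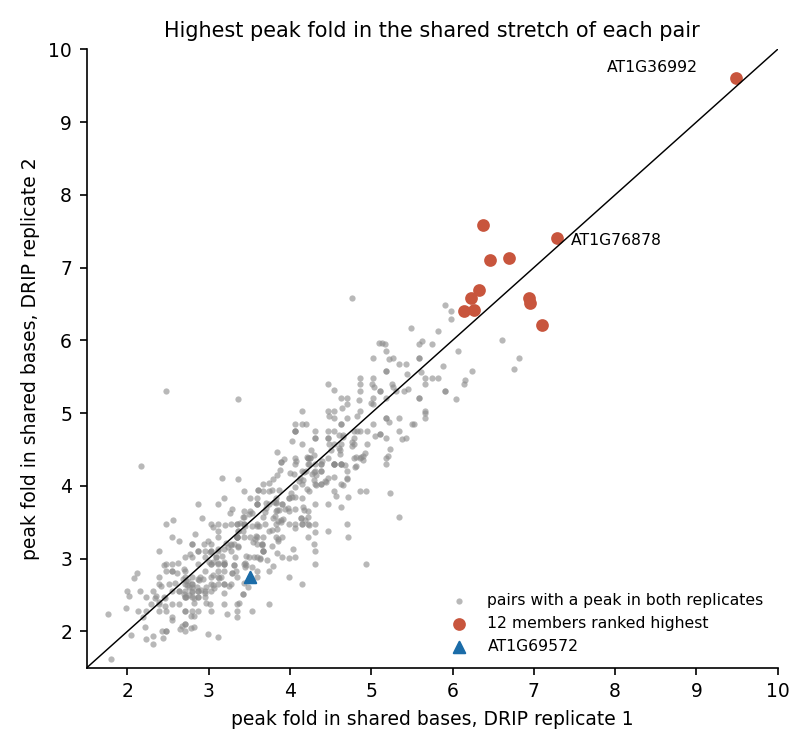
Highest DRIP peak fold in the shared stretch of each pair in replicate 1 (horizontal axis) and replicate 2 (vertical axis), for the 575 pairs with a peak in both, and the line of equal values. The 12 highest-ranked lncRNA genes are filled in red, with AT1G36992 at 9.49 and 9.60, and AT1G69572 is the triangle at 3.51 and 2.74.

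The highest w folds in shared bases were 10.6 in AT2G08525, nested in the protease gene ARASP, and 10.6 in AT4G06870, nested in PAM68, a photosystem II assembly factor. They were followed by AT5G03668 at TRM28 and by AT1G09677 in SEC5A, an exocyst subunit, with 10.3. None of these 4 had a c peak in the shared stretch, and the w summit lay in it only in TRM28 and SEC5A. In ARASP the w peak, at chr2:13789682-13790162, covered all 249 shared bases, while c peaks covered 49.9% of the remaining bases of the gene. In SEC5A the w peak covered all 525 bp shared and only 3.11% of the rest, and DRIP peaks covered 96.8% and 94.3% of the shared stretch against 0.950% and 1.11% of the rest.

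The highest c folds were 10.7 in AT2G04755 in AT2G04280, 10.5 in AT3G52605, 10.3 in AT1G09327 in AT1G72600 and 10.2 in AT1G80325. In AT2G04755 the c peak, at chr2:1480714-1481913, covered 67.1% of the 1789 bp shared. In AT1G09327 the c peak covered all 768 bp shared, while w peaks covered 64.1% of the rest of AT1G72600 and c peaks 1.83%, although the summit of that c peak lay outside the shared stretch. AT1G80325 is the lncRNA gene with the most partners, 5. Its 10.2-fold c peak lay in MOT2, a molybdate transporter gene, with DRIP folds of 5.10 and 4.71, and a w peak of 2.36-fold lay elsewhere in MOT2. No peak of any list lay in its stretches shared with NTT1, an ATP/ADP translocator gene, or GA3OX4, a gibberellin oxidase gene.

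Not all signal at a pair lay in the shared bases. Of the 567 pairs with lncRNA-only bases, 98 had a DRIP peak of both replicates in the shared but not the lncRNA-only bases, and 20 the reverse. In 14 pairs the lncRNA gene held a DRIP peak in both replicates outside the overlap while no list had a peak inside it. The longest such overlap, 1791 bp, was that of AT4G17098 with AT4G17100, where 34.9% and 38.2% of the lncRNA-only bases were covered. AT5G18255 at AT5G18260 had 46.7% and 40.3% of its own bases covered and no peak in the partner. AT2G18917 at AT2G18920 had 48.3% and 50.6%, also with none in the partner. For AT5G10965, a lncRNA gene of 4598 bp around AT5G10970, the values were 4.29% and 4.23%. In the 3 partial overlaps here the partner was covered at its lower-coordinate end.

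A further 219 of the 1563 pairs had no peak of any list in either gene. Taken singly, 16.0% of partners, 20.7% of all protein-coding genes and 58.1% of all lncRNA genes had none. The longest shared stretch among them was 2456 bp, between AT5G01542 and the lectin receptor kinase gene LECRKA4.1. The next were 2188 bp for AT3G07785 in AT3G47580, 1710 bp for AT1G04103 at MAN1, an endo-beta-mannanase gene, and 1647 bp for AT1G09053 in the receptor-like kinase gene RPK1. Peak lists do not tell a locus without R-loops from one whose signal stayed under the threshold.

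Overlapping or antisense lncRNAs have been described at several Arabidopsis genes, and 7 of these loci were looked up. Of the 7, 3 were partners here. FLC, a MADS-box repressor of flowering, lay wholly inside the lncRNA gene AT5G01675 with 6067 bp shared. Replicate 1 had 1 peak there, of 2.31-fold at chr5:3173403-3173520, which covered 1.94% of the stretch, and replicate 2 had none. The w list had a peak of 3.98-fold at chr5:3173390-3173566 and the c list none. At FLC the DRIP peak was thus present in 1 of 2 replicates, with a fold below its list's median of 3.01.

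At AT1G69570, the nested lncRNA gene AT1G69572 shared 1241 bp and had DRIP folds of 3.51 and 2.74. The DRIP peaks lay at chr1:26162493-26162643 and chr1:26162517-26162715. The w fold was 6.48 and there was no c peak, and no list had a peak in the other bases of AT1G69570. At DREB1A, also named CBF3, a cold-response transcription factor gene, the lncRNA gene AT4G07385 shared 29 bp and no peak lay in those bases or in its own. The other bases of DREB1A were covered at 60.2% and 62.2% by DRIP peaks, 29.3% by w peaks and 43.4% by c peaks.

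Partners were last grouped by the letters of their symbols, which 626 of 1516 had, while no overlapping lncRNA gene had one. Transcription factor symbols gave 29 partners, of which 16 had a DRIP peak in both replicates, and 9 of their 30 shared stretches did. Over all pairs 36.8% of shared stretches did, and the counts of shared stretches in the small groups below are to be read against it. Over all 553 genes with such symbols 59.1% had a peak in both, and the letters also take in 3 partners, ARFD1B, ARFA1F and ARF1A1C, named for ADP-ribosylation factors. HSFC1, a heat shock factor, had folds of 4.20 and 4.85 over 1808 bp shared with AT3G24518, with a w peak of 7.63-fold and a c peak of 3.65-fold. The leaf-shape regulator TCP3 had folds of 4.07 and 3.68 over 1525 bp and a w peak only. WRKY33, a regulator of defence against fungi, had folds of 3.54 and 3.23 over 272 bp and a c peak only. MYB24, a stamen regulator, had no peak of any list in the 2591 bp it shared with AT5G40348.

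Among kinase and receptor symbols, 14 of 16 partners had a DRIP peak in both replicates (75% of all 164 such genes did), and 8 of 16 shared stretches. RLP26, RLP46 and RLP50, receptor-like protein genes, shared 2671, 2779 and 2757 bp with their lncRNA genes and held DRIP peaks of both replicates and both strand lists there. The smaller DRIP folds were 3.38, 3.77 and 3.57. CRK3 shared 49 bp with AT2G09755, and the peaks that touched them were high, at 5.90-fold and 6.49-fold with a w fold of 10.3. MPK6, a mitogen-activated protein kinase gene, had none in the 267 bp shared with AT2G09500.

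Cytochrome P450 symbols gave 8 partners, 7 with a peak in both replicates (70.7% of all 229), and 6 of 8 shared stretches. CYP98A8 and CYP98A9, neighbouring genes of pollen phenylpropanoid metabolism, had smaller folds of 3.75 and 2.68 and w peaks only. CYP91A2 had folds of 4.81 and 4.28 over 1820 bp and peaks of both lists, w at 5.01-fold and c at 8.73-fold. CYP98A3, which acts in lignin synthesis, had no peak in its 529 bp shared. Of transporter symbols, 8 of 11 partners had a peak in both replicates (66.3% of all 199), and 4 of 12 shared stretches. The ammonium transporter gene AMT1;1 had folds of 4.15 and 2.65 over 1709 bp and a c peak only.

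The remaining groups were small. Stress and seed symbols gave 5 partners, of which 4 had a peak in both replicates (61.0% of all 123) and 3 did in the shared stretch, among them GSTU7, a glutathione transferase gene, with 4.87-fold and 4.75-fold, and the small heat shock protein gene HSP17.4, with 4.63-fold and 4.02-fold. The disease resistance gene RPS2, whose symbol has the letters of a ribosomal protein gene, shared 3285 bp with AT4G26095, where DRIP peaks reached 4.23-fold and 3.93-fold, with a w peak only. The expansin gene EXPA20 had 3.49-fold and 2.60-fold, and PUB43, a ubiquitin ligase gene, had only a w peak of 2.21-fold in 2879 bp shared.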

How the data were processed

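Measurements came from 2 DRIP replicates of 5 samples. The tools were CASAVA, BWA 0.7.12 and MACS2 on the TAIR10 build, per the submitters' processing notes. MACS2's control library, its parameters and any pooling of libraries were not given in the sources used here. The deposited fold is the ratio of pileup to local background computed for the authors by MACS2. The deposited p-value and q-value columns are -log10 values, and every peak had a q-value of 0.05 or less. The deposited score column was not used.

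Genes came from a RefSeq table of TAIR10.1 that gives no strand, exons or sequence. The planned comparison of w and c coverage by the partner's strand was therefore not run, and only peak coordinates, counted from 1, are printed. Peaks and genes were joined by position, and a peak counted from 1 bp of overlap. Coverage is the share of a region's bases under peaks, each base counted once. A pair's fold is the highest of the peaks touching its shared bases. SD is over the replicates. Calculations used Python 3.11.15, numpy 2.4.6 and pandas 2.3.3 and were tested on simulated data with known overlaps.

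No test was made: peak lists of 1 condition allow none between conditions, and regions are not replicates. Members and lists were chosen with earlier results of these data known. Genes named by rule are the 12 highest by the smaller DRIP fold in shared bases, 4 with lncRNA-only peaks and 4 with none by length of overlap, the 4 highest w and the 4 highest c folds, and partners among 7 loci with described lncRNAs. Partners in the symbol groups, the 2 pairs with opposite strand lists and the other partners of AT1G80325 were picked after their values were seen. Of the group of ribosomal protein symbols, only RPS2 is reported here.

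Alternatives were peaks counted by summit or from 50 bp of overlap, a q-value of 0.01, the upper 50% of peaks by fold, pairs sharing at least 100 bp, regions outside the pericentromeres (2.5 Mb either side of the step of 500 kb poorest in genes), lncRNA genes with 1 partner, and leaving out each replicate.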

Additional observations from a re-analysis of the deposited data

How the results depend on the processing

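Of 137 values for 17 results under the alternatives, 89 stayed within the replicate spread, the binomial interval or 1.5 times the count and 48 moved. Only the differences in coverage could change sign, and neither did. The w share at higher ends passed from 49.4% to above even, at 53.4% with the upper 50% of peaks and 53.0% with 1 partner. By summit, coverages were counted as moved and their differences as unchanged without comparing sizes, since the unit differs. For w and c coverage and w shares the interval treated bases as independent, which makes it too narrow. Counting peaks by summit lowered the share of lncRNA genes with a peak in both replicates to 26.1% and of pairs to 22.8%. Coverage, then in summits per kb, was 0.57 in shared, 0.34 in lncRNA-only and 0.44 in partner-only bases, and 0.42 for w and 0.43 for c in shared bases. It left 101 pairs with w and c peaks, 54.4% of pairs with 1 strand list on both sides, 10 pairs with opposite lists and 0 with the lncRNA list in the shared stretch. Over whole shared stretches at covered ends, the w share went from 42.7% to 45.0% at lower ends and from 49.4% to 46.1% at higher ends. Requiring 50 bp gave 36.1% of lncRNA genes, 32.8% of pairs, and w and c coverage of 15.5% and 16.6%. A q-value of 0.01 gave w and c coverage of 15.6% and 16.6% and a higher-end w share of 49.7%.

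The upper 50% of peaks by fold gave 26.1% of lncRNA genes and 24.6% of pairs, with coverage of 17.1% in shared, 7.77% in lncRNA-only and 10.5% in partner-only bases. The differences were 9.34 and 6.59 points, w and c coverage 12.3% and 12.8%, 76 pairs held both lists, 93.6% had the same list on both sides, 12 had opposite lists, and the w shares were 43.5% and 53.4%. Pairs sharing at least 100 bp gave 39.2% and a lower-end w share of 42.2%. Without pericentromeric regions, lncRNA-only coverage was 10.1%, its difference from shared bases 12.3 points, w and c coverage 15.8% and 16.6%, and the lower-end w share 44.4%. With 1 partner only, that difference was 10.5 points, w and c coverage 16.1% and 16.1%, and the w shares 40.8% and 53.0%. Without replicate 1 or 2, the share of lncRNA genes with a peak ran from 41.4% to 45.6% and of pairs from 38.8% to 42.2%, since 1 replicate then sufficed. The cause of the other moves was not tested beyond what each alternative removes by construction.

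No paired analysis was possible because only the DRIP group had peak lists and no result came from a test. The 7 results on pair counts, strand lists and covered ends, the 12 single pairs' folds and the place of their summits were added after seeing the data. Of 98 values of those folds 84 stayed within the replicate SD and 14 moved. These counts do not measure stability: the filters on fold and on pairs could not change the fold of a pair they kept. Pairs left without a fold under an alternative are not among the 98. By summit, 8 of the 12 pairs did not have the ranked peak's summit in the shared stretch in both replicates. The comparison by strand of the partner could not be run. Depth is unknown, so signal below the peak threshold is not counted.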
